A study of Mus musculus with 6 samples.

Results

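The nuclear-encoded subunits of the mitochondrial respiratory chain were followed as 82 protein-coding genes among the 54123 genes with a transcript in the deposited files. Members were chosen by symbol alone, as Nduf genes of the a, b, c, s and v series (complex I), Sdha to Sdhd (complex II), Uqcr genes (complex III), Cox4 to Cox8 genes with a lettered or numbered suffix (complex IV) and Atp5 genes (complex V, the ATP synthase). This gave 37 genes in complex I, 4 in complex II, 8 in complex III, 15 in complex IV and 18 in complex V. A complex IV gene that fits this pattern was left out by name and is not reported here, and pseudogenes were left out too. The symbol pattern does not take in Ndufab1, Cox4i1, Cox4i2 or Cyc1, which encode subunits too. It counts Ndufa4 under complex I, although its protein is now placed with complex IV, and it also takes in Cox7a2l, a supercomplex assembly factor, and Atp5s, a factor B homologue. The 82 genes carry 81 symbols, because Atp5o has 2 gene identifiers, of which 1 received no reads.

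RNA was sequenced from muscle satellite cells of adult C57BL/6 mice that were sorted by fluorescence 30 h after cardiotoxin was injected into the tibialis anterior and gastrocnemius. Cardiotoxin is a snake venom toxin that kills fibres and sets off regeneration, so every group, the control included, was injured. The Jmjd3 KO group is labelled as a knockout of Jmjd3 (gene Kdm6b) and the Utx KO group as a knockout of Utx (gene Kdm6a), and the Tdt control is named wild-type in the title of the series. Each of the 3 groups had 2 libraries of total RNA. Neither the Cre line behind the knockouts, nor what Tdt stands for, nor whether replicates came from separate animals is given in the labels, so p-values measure only the spread between these libraries, which may be technical.

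The respiratory chain passes electrons from NADH (complex I) and succinate (complex II) through ubiquinone to complex III, by cytochrome c to complex IV, and on to oxygen. Complexes I, III and IV pump protons across the inner mitochondrial membrane, and ATP synthase uses the returning protons to make ATP. Most subunits are encoded in the nucleus and must match a small set made inside the mitochondrion, and satellite cells that leave quiescence after injury are known to raise mitochondrial activity. Jmjd3 and Utx are both known for demethylating histone H3 at lysine 27, a mark of silenced genes.

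Library totals ran from 53750675 to 77675388 estimated reads, and 17084 genes passed the filter on low counts. Levels are given as TPM (the deposited measure scaled to the library's transcripts, which corrects for length) and comparisons between libraries as CPM (reads scaled to the normalised library size). Kdm6a had 7.68 and 7.38 CPM in Utx KO libraries, against 32.9 and 33.96 CPM in Tdt control libraries. Kdm6b had 15.9 and 16.5 CPM in Jmjd3 KO libraries, against 29.9 and 22.7 CPM in Tdt control libraries, a smaller difference in the direction of its label. Pax7, the defining satellite cell factor, lay between 134 and 148 CPM in all 6 libraries. Of the 10 satellite cell genes, Des rose (0.35 ± 0.04, SE) and Myod1 fell (-0.22 ± 0.04) in Jmjd3 KO against Tdt control, Myf5 rose (0.44 ± 0.05) and Myod1 fell (-0.22 ± 0.04) in Utx KO against Tdt control, and 1 rose and 3 fell in Jmjd3 KO against Utx KO. Both calls of Myod1 were lost without any 1 of the 6 libraries (adjusted p from 0.0539 to 0.209), and that of Myf5 in 4 of 6 cases (up to 0.111). Markers of some other cells differed between groups, and some also between libraries of a group. The 10 neutrophil genes summed to 314 and 243 CPM in Jmjd3 KO, 207 and 242 CPM in Utx KO and 155 and 170 CPM in Tdt control libraries, and 5 of the 10 rose in Jmjd3 KO against Tdt control. Within Jmjd3 KO these genes were higher in replicate 1, by a median log2 difference of 0.39. In Utx KO against Tdt control edgeR called 1 of the 10 higher, Hdc. There 7 were higher at an unadjusted p under 0.05 in edgeR, against 7.66% of all genes. The 12 macrophage and monocyte genes summed to 343 and 313 CPM in Jmjd3 KO, 205 and 242 CPM in Utx KO and 228 and 273 CPM in Tdt control libraries, and 2 rose in Jmjd3 KO against Tdt control and 7 against Utx KO. Utx KO against Tdt control gave 0 calls of these 12 in edgeR and 1 in DESeq2. There 7 were lower at an unadjusted p under 0.05 in edgeR, against 8.54% of all genes. The 10 fibro-adipogenic genes summed to 1467 and 1435 CPM in Jmjd3 KO, 1256 and 1405 CPM in Utx KO and 1261 and 1262 CPM in Tdt control libraries, and 4 rose in Jmjd3 KO against Utx KO. In Utx KO against Tdt control 3 of them were higher and 5 lower at an unadjusted p under 0.05 in edgeR, against 7.66% and 8.54% of all genes. The 10 endothelial genes summed to 56.1 and 71.5 CPM in Jmjd3 KO, 57.1 and 50.5 CPM in Utx KO and 65.2 and 72 CPM in Tdt control libraries. Of these 0 were called by edgeR in each comparison, with 5 lower at an unadjusted p under 0.05 in Utx KO against Tdt control, where DESeq2 called 1. The 5 erythroid genes summed to 28.1 and 37.5 CPM in Jmjd3 KO, 43.2 and 41.5 CPM in Utx KO and 31.6 and 38.1 CPM in Tdt control libraries. In edgeR 0 of them were called, with 3 lower at an unadjusted p under 0.05 in Jmjd3 KO against Utx KO, against 11.9% of all genes. Of all genes, edgeR called 1.97% higher and 1.03% lower in Jmjd3 KO against Tdt control, and 0.790% and 0.925% in Utx KO against Tdt control. In Jmjd3 KO against Utx KO these were 5.13% and 2.89%. The part of these cells in the values below was not tested.

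Promoter sequence is shown first for genes from each complex, because the nuclear subunits are known targets of the nuclear respiratory factors NRF1 and GABP. Of the 81 symbols, 66 matched RefSeq's table of promoters on GRCm38.p6, which runs from 250 bases before to 50 bases after each gene's start. The stretches, 5′ to 3′ on the gene's own strand, hold no annotated exon and lie at chr4:123718230-123718329 (minus strand) for Ndufs5, chr17:56717686-56717761 (plus) for Ndufa11, chr9:50603850-50603909 (minus) for Sdhd, chr10:80406835-80406934 (minus) for Uqcr11, chr5:115349030-115349129 (minus) for Cox6a1, chr11:115420006-115420105 (minus) for Atp5h, chr7:30184044-30184143 (plus) for Cox7a1 and chr7:140900447-140900546 (minus) for Cox8b. Capitals mark the palindromic NRF1 motif with the fifth base free, read on either strand, and CCGGAAG, the letters of GABP and other ETS factors, or its reverse complement CTTCCGG. The muscle-type isoforms Cox7a1 and Cox8b are set beside the others as promoters in whose stretch neither motif was found.
Ndufs5: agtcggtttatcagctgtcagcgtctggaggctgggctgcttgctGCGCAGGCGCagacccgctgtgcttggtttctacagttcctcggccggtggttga
Ndufa11: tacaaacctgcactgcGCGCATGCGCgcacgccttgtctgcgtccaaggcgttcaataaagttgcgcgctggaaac
Sdhd: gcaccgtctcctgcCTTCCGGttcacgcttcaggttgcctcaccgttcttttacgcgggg
Uqcr11: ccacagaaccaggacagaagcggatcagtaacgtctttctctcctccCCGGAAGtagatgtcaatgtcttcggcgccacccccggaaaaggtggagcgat
Cox6a1: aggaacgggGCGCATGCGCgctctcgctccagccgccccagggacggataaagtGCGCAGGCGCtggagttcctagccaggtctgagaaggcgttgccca
Atp5h: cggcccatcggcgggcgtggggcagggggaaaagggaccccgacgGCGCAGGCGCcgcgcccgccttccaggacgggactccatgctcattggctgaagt
Cox7a1: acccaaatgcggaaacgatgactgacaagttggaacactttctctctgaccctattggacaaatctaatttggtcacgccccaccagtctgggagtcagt
Cox8b: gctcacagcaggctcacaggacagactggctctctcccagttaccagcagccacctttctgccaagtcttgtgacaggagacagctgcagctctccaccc

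In these windows the NRF1 letters with the fifth base free occurred in 17 of 66 members (25.8%), against 4.6% of all 32851 promoters in the table and 10.7% of the genes tested that have one. By complex they stood in 7 of 32 promoters of complex I, 2 of 3 of complex II, 1 of 5 of complex III, 1 of 13 of complex IV and 6 of 13 of complex V. The full NRF1 palindrome, in capitals in Ndufa11, occurred in 5 members (7.58%), against 0.971% of all promoters and 2.14% of the genes tested. It is the form that Ndufa11 carries 60 bases before its start and Cox6a1 162 bases before its start, where Cox6a1 has a second, imperfect copy at 117 bases. The GABP letters CCGGAAG occurred in 16 members (24.2%), against 8.86% of all promoters and 18.7% of the genes tested. In Sdhd they began 46 bases and in Uqcr11 66 bases before the start. AAGATGGCG, the letters of YY1, another regulator of these genes, occurred in 7 members (10.6%), against 1.40% of all promoters and 3.28% of the genes tested. TATAAA occurred in 7 members (10.6%), against 13.6% of all promoters but 9.34% of the genes tested. These motifs were searched on both strands, the full palindrome is contained in the form with a free base, and 32 of the 66 promoters held none of the NRF1, GABP and YY1 letters. A match describes letters in a window and is not evidence that a factor binds.

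All complexes were transcribed in every library, but at different levels. The median gene of complex I had 63.4 TPM and that of complex II 72.5 TPM, averaged over the 6 libraries. Medians were 156 TPM for complex III, 149 TPM for complex IV and 143 TPM for complex V. Complexes I and II lay below complexes III to V in 6 of 6 libraries, complex II lay above complex I in 6 of 6, and complex III lay above complex IV in 6 of 6. The order of complexes IV and V was less firm, with IV above V in 5 of 6 libraries.

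**Figure D1:**
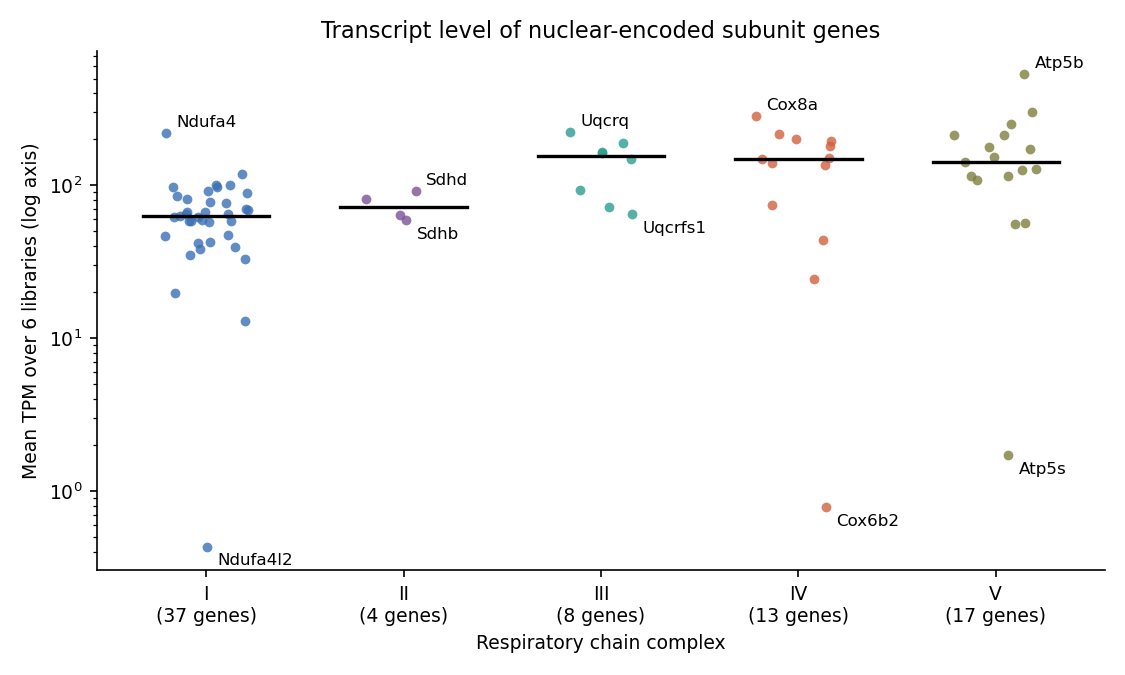
Mean TPM over 6 libraries (vertical log axis) of each of the 79 subunit genes tested, grouped by complex, with 1 point a gene and a bar at the median of the complex. The median bars of complexes I and II sit at 63.4 and 72.5 TPM and those of III, IV and V at 156, 149 and 143 TPM, and single genes near 1 TPM (Ndufa4l2, Cox6b2, Atp5s) lie far below their complexes.

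The catalytic head of ATP synthase led the list. Atp5b, its catalytic beta subunit, averaged 532 TPM, and Atp5a1, the alpha subunit beside it, averaged 304 TPM. Cox8a, the ubiquitous form of a small complex IV subunit, had 282 TPM and was the highest of its complex. Uqcrq, a small subunit of complex III, had 223 TPM, and Ndufa4 had 220 TPM. Within complex II the 4 genes lay within 1.56-fold, from Sdhb at 58.9 TPM to Sdhd at 92.0 TPM. In complex III the genes spread 3.43-fold, the lowest being Uqcrfs1, the Rieske iron-sulfur protein, at 64.9 TPM. The lowest tested genes of the other complexes were Ndufa4l2, a paralog of Ndufa4 known as hypoxia-inducible, at 0.431 TPM, Cox6b2, a testis form, at 0.785 TPM and Atp5s at 1.71 TPM. The muscle-type isoforms Cox7a1 and Cox8b had 24.5 and 43.9 TPM. With Ndufa4l2, Cox6b2, Cox7a1, Cox8b and Atp5s set aside, the lowest were Ndufv3 at 12.99 TPM, Cox7a2l at 74.7 TPM and Atp5g2 at 56.2 TPM. Ndufv3 is an accessory subunit of the NADH-binding arm. The rank of Atp5g2 is uncertain, since 75.9% of its combined reads were assigned to a pseudogene copy. Complex V held 33.1% to 33.9% of the members' summed TPM in each library, complex I 28.6% to 29.2%, complex IV 20.6% to 21.2%, complex III 12.9% to 13.3% and complex II 3.41% to 3.56%. The 3 genes not tested were Cox7b2 and Cox8c, known as testis forms, and the second Atp5o identifier, which received 0 reads in all 6 libraries.

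No subunit gene passed the test in either knockout at 2 libraries a group. Of the 79 tested, 0 were called in Jmjd3 KO against Tdt control at an adjusted p under 0.05 in edgeR's quasi-likelihood test, while 3% of all genes were called (1.97% higher and 1.03% lower). At an unadjusted p under 0.05 there were 4 members, all lower (5.06% of members, while 11% of all genes were higher and 8.93% lower), and DESeq2 called 0. In Utx KO against Tdt control 0 were called by edgeR, where 1.72% of all genes were called (0.790% higher and 0.925% lower). Here 12 members had an unadjusted p under 0.05, 3 of them higher and 9 lower (3.797% and 11.4% of members, against 7.66% and 8.54% of all genes), and DESeq2 called 2, Atp5g3 and Uqcrfs1. In Jmjd3 KO against Utx KO 0 were called by edgeR, where 8.02% of all genes were called (5.13% higher and 2.89% lower). In that comparison 9 members had an unadjusted p under 0.05, 5 higher and 4 lower (6.33% and 5.06% of members, against 13.7% and 11.9% of all genes), and DESeq2 called 2, Atp5g1 and Uqcrfs1. The shares of all genes given here are those of edgeR. DESeq2 called more genes over all than edgeR in both comparisons with Tdt control, with counts given below. The 3 comparisons share libraries in pairs and are not independent of each other.

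Intervals show how much change these libraries could still hide. The 95% confidence interval of the fold change lay wholly within 1.25-fold in either direction for 71 of 79 members in Jmjd3 KO against Tdt control (89.9%). It did so for 60 of 79 in Utx KO against Tdt control and for 60 of 79 in Jmjd3 KO against Utx KO (75.95% each). Among the 76 members with a mean of at least 10 CPM these shares were 93.4%, 78.95% and 78.95%, against 75.5%, 77.95% and 69.45% of the 8741 genes at that level. The interval reached past 1.5-fold in Jmjd3 KO against Tdt control for Cox6b2, Cox7a1, Cox8b, Ndufa4l2 and Atp5s. It did so in Utx KO against Tdt control for Cox6b2, Ndufa4l2 and Atp5s, and in Jmjd3 KO against Utx KO for Cox6b2, Cox7a1, Cox8b and Ndufa4l2. Of the 79 members tested, these are the 5 with the fewest reads.

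**Figure D2:**
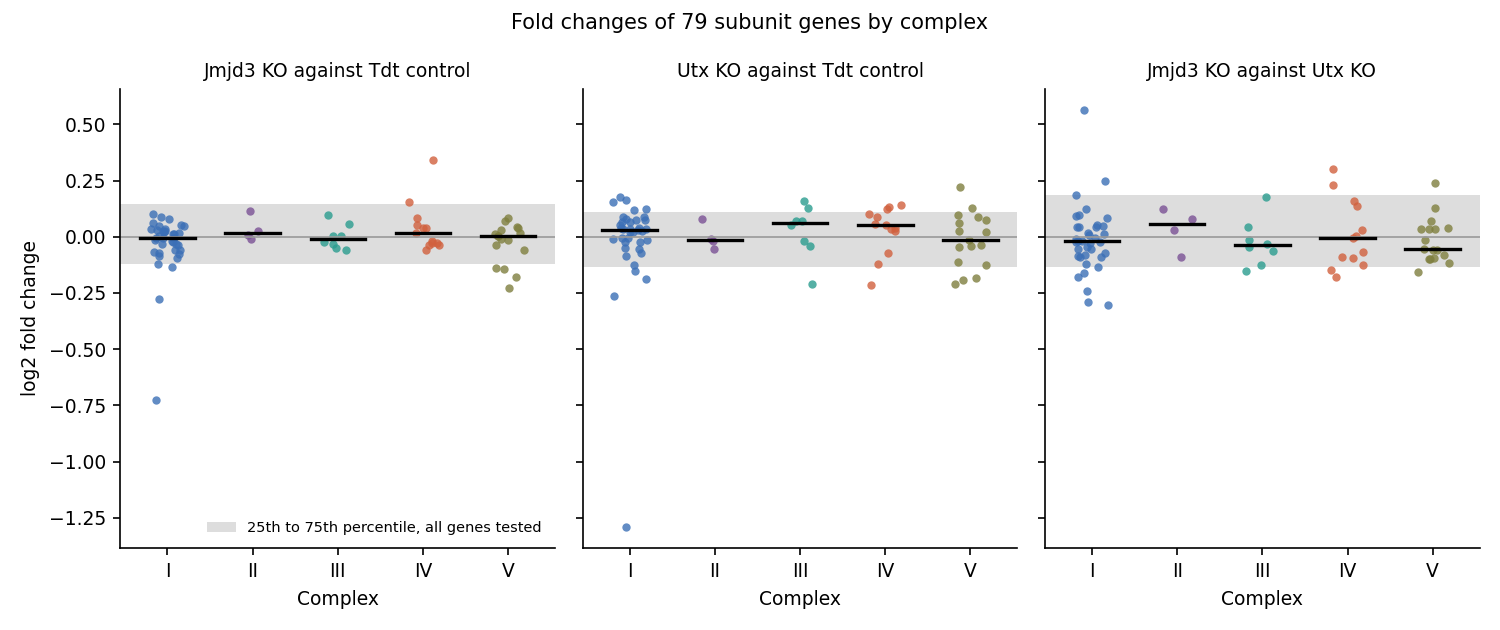
The log2 fold change (vertical axis) of each of 79 subunit genes in 3 comparisons, by complex, with 1 point a gene, a bar at the median of the complex and a grey band from the 25th to the 75th percentile of all 17084 genes tested. Medians of the complexes lie between -0.05 and 0.06, and the lowest point in both knockout comparisons with Tdt control is Ndufa4l2, at -0.73 in Jmjd3 KO and -1.29 in Utx KO.

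By complex, the median log2 fold change in Jmjd3 KO against Tdt control was -0.01 for complex I, 0.02 for II, -0.01 for III, 0.02 for IV and 0.00 for V, and over all genes tested it was 0.00. In Utx KO against Tdt control it was 0.03 for I, -0.01 for II, 0.06 for III, 0.05 for IV and -0.01 for V. In Jmjd3 KO against Utx KO it was -0.02 for I, 0.06 for II, -0.04 for III, 0.00 for IV and -0.05 for V. Signs were nearly balanced in Jmjd3 KO against Tdt control, with 40 members above 0 and 39 below. They were 46 above and 33 below in Utx KO against Tdt control, and 33 above and 46 below in Jmjd3 KO against Utx KO. Of 15 such medians, 14 changed sign when some single library was left out, and over all alternatives they stayed between -0.11 and 0.14. Libraries of the groups did not overlap for 6 members that were higher and 8 that were lower in Jmjd3 KO than in Tdt control (7.59% and 10.1%, against 26.2% and 25.5% of all genes). For Utx KO and Tdt control these were 11 higher and 17 lower members (13.9% and 21.5%, against 22.3% and 23.3% of all genes). For Jmjd3 KO and Utx KO these were 14 higher and 15 lower members (17.7% and 19.0%, against 28.6% and 28.6% of all genes).

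Values of the catalytic core of complex I lay close together across libraries. Ndufs1, which carries several of the iron-sulfur clusters, had 118 and 116 CPM in Jmjd3 KO, 118 and 120 CPM in Utx KO and 119 and 120 CPM in Tdt control libraries. Ndufs3, another core subunit, had 87.2 and 83.8 CPM in Jmjd3 KO, 81.3 and 84.8 CPM in Utx KO and 84.2 and 83.5 CPM in Tdt control libraries. Ndufs7, which holds the last cluster before quinone, had 56.8 and 56.9 CPM in Jmjd3 KO, 48.6 and 55.6 CPM in Utx KO and 55.6 and 50.4 CPM in Tdt control libraries. Its log2 fold change of 0.10 ± 0.08 (SE) in Jmjd3 KO against Tdt control was the highest of complex I (adjusted p = 0.512), and both Jmjd3 KO libraries lay above both Tdt control libraries. Ndufs8, another cluster-bearing subunit, had 53.3 and 52.2 CPM in Jmjd3 KO, 50.7 and 51.9 CPM in Utx KO and 55.3 and 56.7 CPM in Tdt control libraries. Both Utx KO libraries and both Jmjd3 KO libraries of Ndufs8 lay below both Tdt control libraries, by -0.13 ± 0.05 in Utx KO (adjusted p = 0.250) and -0.09 ± 0.05 in Jmjd3 KO (adjusted p = 0.365) in edgeR's quasi-likelihood test. Ndufv1, which binds NADH and flavin, had 154 and 148 CPM in Jmjd3 KO, 147 and 151.57 CPM in Utx KO and 152.04 and 157 CPM in Tdt control libraries. Ndufv2, its partner with 1 cluster, had 108 and 101 CPM in Jmjd3 KO, 107 and 109 CPM in Utx KO and 98.4 and 111 CPM in Tdt control libraries. The groups of these 2 genes overlapped, except that Ndufv1 was lower in both Utx KO than in both Tdt control libraries.

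Among the accessory subunits of complex I, Ndufv3 differed most in Utx KO after Ndufa4l2. Ndufv3 had 14.7 and 15.1 CPM in Jmjd3 KO, 12.8 and 12.2 CPM in Utx KO and 14.1 and 15.96 CPM in Tdt control libraries, so both Utx KO libraries lay below the other 4. The log2 fold change was -0.26 ± 0.08 in Utx KO against Tdt control (adjusted p = 0.163) and 0.25 ± 0.08 in Jmjd3 KO against Utx KO (adjusted p = 0.103). Ndufa4l2 had 0.381 and 0.511 CPM in Jmjd3 KO, 0.242 and 0.357 CPM in Utx KO and 0.763 and 0.714 CPM in Tdt control libraries, and both knockouts lay below the Tdt control. Its log2 fold changes, -0.73 ± 0.31 in Jmjd3 KO (adjusted p = 0.244) and -1.29 ± 0.33 in Utx KO (adjusted p = 0.113) against Tdt control, rest on 197 reads over the 6 libraries, and it made up 0.0934% to 0.327% of the TPM of Ndufa4 and Ndufa4l2 together. Ndufa6, an accessory subunit of the LYR family, had 41.7 and 38.4 CPM in Jmjd3 KO, 41.3 and 43.8 CPM in Utx KO and 36.2 and 39.1 CPM in Tdt control libraries. It was the highest of complex I in Utx KO against Tdt control, by 0.17 ± 0.06 (adjusted p = 0.241), with no overlap between those groups.

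Ndufs5, an accessory subunit on the side of the intermembrane space, was a member whose value changed when reads of a copy were added. It had 46.4 and 35.6 CPM in Jmjd3 KO, 49.1 and 52.1 CPM in Utx KO and 48.9 and 50.3 CPM in Tdt control libraries. Both Jmjd3 KO libraries lay below the other 4, and the log2 fold change was -0.28 ± 0.11 against Tdt control (adjusted p = 0.219) and -0.30 ± 0.11 against Utx KO (adjusted p = 0.138). BC002163 is a processed pseudogene of Ndufs5 on chromosome 16 (chr16:42955631-42955949, GRCm38) with 99.4% identity over 319 bases. Reads were assigned to it at 4.10 and 8.47 CPM in Jmjd3 KO, 0 and 0.034 CPM in Utx KO and 0 and 0 CPM in Tdt control libraries. It is the Jmjd3 KO libraries that hold nearly all reads of the copy, and the library with less Ndufs5 holds more of it. Whether these reads come from Ndufs5 or from the copy was not tested. With the copy added, Ndufs5 had 50.5 and 44.1 CPM in Jmjd3 KO, 49.1 and 52.1 CPM in Utx KO and 48.9 and 50.3 CPM in Tdt control libraries. Jmjd3 KO replicate 2 was still the lowest library. The Jmjd3 KO pair then overlapped the pairs of both other groups. The log2 fold change became -0.07 ± 0.07 against Tdt control (adjusted p = 0.640) and -0.10 against Utx KO (adjusted p = 0.440). Without Jmjd3 KO replicate 2, the library richest in the copy, the Ndufs5 value alone was -0.10 against Tdt control, and without Jmjd3 KO replicate 1 it was -0.48.

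Copies mattered for few other members. By alignment, 27 of the 82 members had at least 1 pseudogene with 95% identity or more over 100 bases or more, 54 pseudogenes in all. The second Atp5o identifier is 1 of them and had no reads of its own. For the median of the other 26 the copies held 0.015% of the reads, and they held over 5% for 4 of the 26. Atp5g2 had 75.9% of its combined reads on Gm10175, and Ndufb4, an accessory subunit of complex I, had 65.4% on its copy Ndufb4c. Cox7c, a small subunit of complex IV, had 23.3% on Gm12338, and Atp5l, subunit g of ATP synthase, had 5.12% on its copies. Their single values are uncertain where reads are split. With all copies added to their members, 0 members were called in each comparison.

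All 4 subunits of complex II, the only complex with no mitochondrially encoded part, had overlapping groups in Jmjd3 KO and Tdt control. Sdha, the flavoprotein that oxidises succinate, had 250 and 254 CPM in Jmjd3 KO, 241 and 253 CPM in Utx KO and 247 and 254 CPM in Tdt control libraries. Sdhb, the iron-sulfur subunit, had 109 and 101 CPM in Jmjd3 KO, 91.2 and 101 CPM in Utx KO and 91.4 and 102 CPM in Tdt control libraries, and its log2 fold change of 0.12 ± 0.08 in Jmjd3 KO against Tdt control was the highest of the complex (adjusted p = 0.477). The membrane anchor Sdhc had 101 and 92.7 CPM in Jmjd3 KO, 89.8 and 93.5 CPM in Utx KO and 93.8 and 96.9 CPM in Tdt control libraries. The other anchor, Sdhd, had 128 and 116 CPM in Jmjd3 KO, 128 and 131 CPM in Utx KO and 118 and 127 CPM in Tdt control libraries. In Utx KO against Tdt control these anchors lay on opposite sides without overlap, Sdhc at -0.06 ± 0.06 (adjusted p = 0.726) and Sdhd at 0.08 ± 0.07 (adjusted p = 0.621).

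In complex III, Uqcrfs1 had the lowest value in Utx KO against Tdt control. Uqcrfs1 had 90.5 and 86.1 CPM in Jmjd3 KO, 77.8 and 78.4 CPM in Utx KO and 88.9 and 91.9 CPM in Tdt control libraries. Both Utx KO libraries lay below the other 4. The log2 fold change was -0.21 ± 0.06 in Utx KO against Tdt control (adjusted p = 0.126) and 0.18 ± 0.06 in Jmjd3 KO against Utx KO (adjusted p = 0.101) in edgeR's quasi-likelihood test, while DESeq2 gave an adjusted p of 0.02 and 0.0367. Uqcrq had 110 and 101 CPM in Jmjd3 KO, 101 and 119 CPM in Utx KO and 96.1 and 101 CPM in Tdt control libraries, and was the highest of the complex against Tdt control in Jmjd3 KO (0.10 ± 0.09, adjusted p = 0.591) and in Utx KO (0.16 ± 0.09, adjusted p = 0.428). Uqcrh, the hinge protein that holds cytochrome c1, had 125 and 114 CPM in Jmjd3 KO, 129 and 138 CPM in Utx KO and 121 and 123 CPM in Tdt control libraries. Its log2 fold change of -0.15 ± 0.06 in Jmjd3 KO against Utx KO was the lowest of the complex (adjusted p = 0.189). Uqcrb, a small subunit near the quinone site, had the lowest value in Jmjd3 KO against Tdt control, -0.06 ± 0.09 (adjusted p = 0.779), with overlapping groups.

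**Figure D3:**
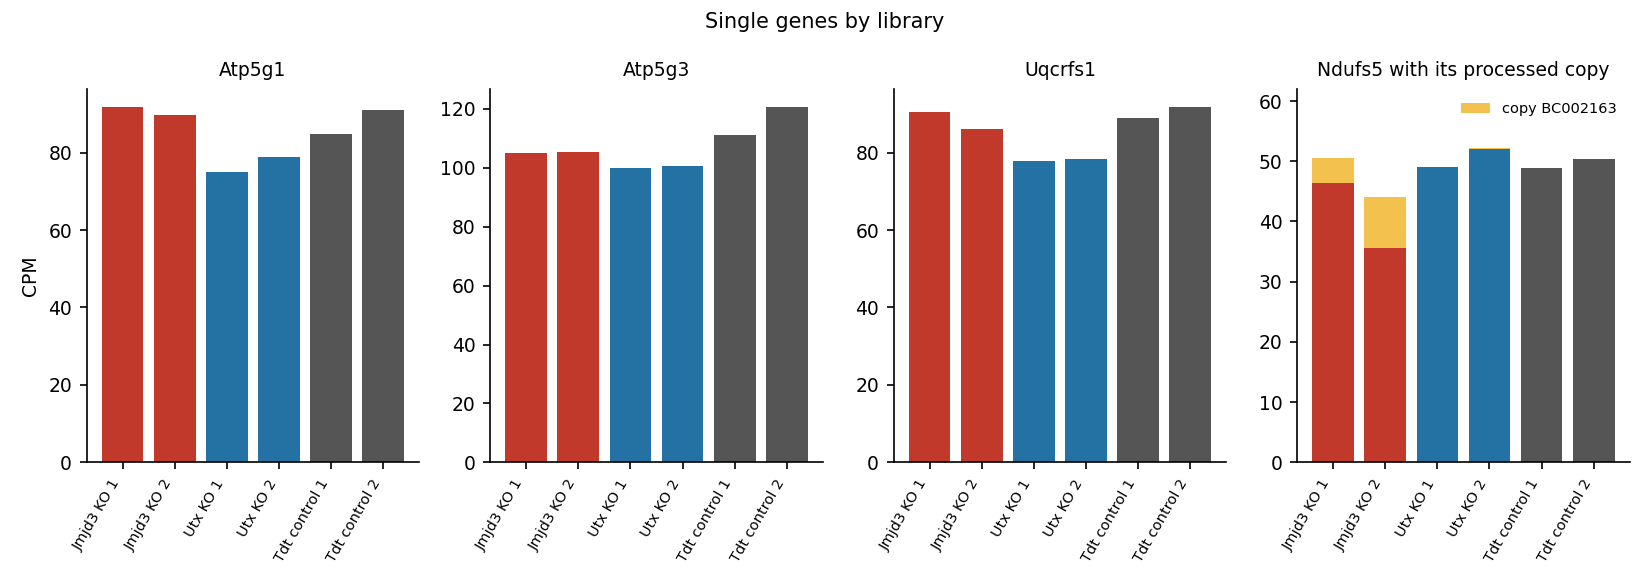
CPM (vertical axis, from 0) of Atp5g1, Atp5g3, Uqcrfs1 and Ndufs5 in each of the 6 libraries, 1 bar a library, with the reads of the processed copy BC002163 stacked on Ndufs5. For Uqcrfs1 and Atp5g1 both Utx KO bars are lower than the other 4, and for Ndufs5 the copy adds 4.10 and 8.47 CPM in the Jmjd3 KO libraries.

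Complex IV has subunits in muscle and ubiquitous forms. The muscle forms among the members, Cox7a1 and Cox8b, varied most of its genes tested here, with a coefficient of variation over the 6 libraries of 20.4% for Cox7a1 and 16.2% for Cox8b. Cox7a1, the heart and muscle form, had 14.2 and 11.6 CPM in Jmjd3 KO, 9.10 and 11.8 CPM in Utx KO and 7.98 and 12.4 CPM in Tdt control libraries. Tdt control replicate 1 was the lowest of the 6 and the other control lay inside the Jmjd3 KO range, so the groups overlapped at a log2 fold change of 0.34 ± 0.21 (adjusted p = 0.425). Leaving out Tdt control replicate 1 gave 0.05, and leaving out the other Tdt control library gave 0.70. It was also the highest of the complex in Jmjd3 KO against Utx KO, at 0.30 ± 0.22 (adjusted p = 0.427). Cox8b, the muscle form of Cox8, had 14.7 and 13.5 CPM in Jmjd3 KO, 9.56 and 14.5 CPM in Utx KO and 11.2 and 14.2 CPM in Tdt control libraries, with overlap throughout. Per length, Cox7a1 made up 16.7% and 15.2% of Cox7a1 and Cox7a2 together in Jmjd3 KO, 12.2% and 13.7% in Utx KO and 11.3% and 15.0% in Tdt control libraries. Cox8b made up 14.7% and 14.2% of Cox8a and Cox8b together in Jmjd3 KO, 10.9% and 13.8% in Utx KO and 11.8% and 14.7% in Tdt control libraries. The ubiquitous forms held the rest in every library.

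These shares can be read beside mature fibre genes. The 14 fibre markers, all of which passed the filter, summed to 7685 and 7983 CPM in Jmjd3 KO, 5362 and 6425 CPM in Utx KO and 5891 and 6238 CPM in Tdt control libraries. Of these, 3 rose in Jmjd3 KO against Tdt control, 5 in Jmjd3 KO against Utx KO, and 1 fell in Utx KO against Tdt control. The shares of all genes called in the same directions were 1.97%, 5.13% and 0.925%. The 3 that rose against Tdt control were Myh4, Atp2a1 and Ryr1. Myh4 lies on the chromosome of Kdm6b (chr11:67238029-67260446 and chr11:69398508-69413675), and Atp2a1 and Ryr1 lie on chromosome 7. The part of that position in the value of Myh4 was not tested. Within Utx KO and within Tdt control the library with the lower fibre sum also had the lower Cox7a1 and Cox8b, while within Jmjd3 KO the library with the lower fibre sum had the higher Cox7a1 and Cox8b. The part of the fibre markers in these values was not tested, and in bulk RNA a change in the number of cells of a type and in RNA per cell cannot be told apart.

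**Figure D4:**
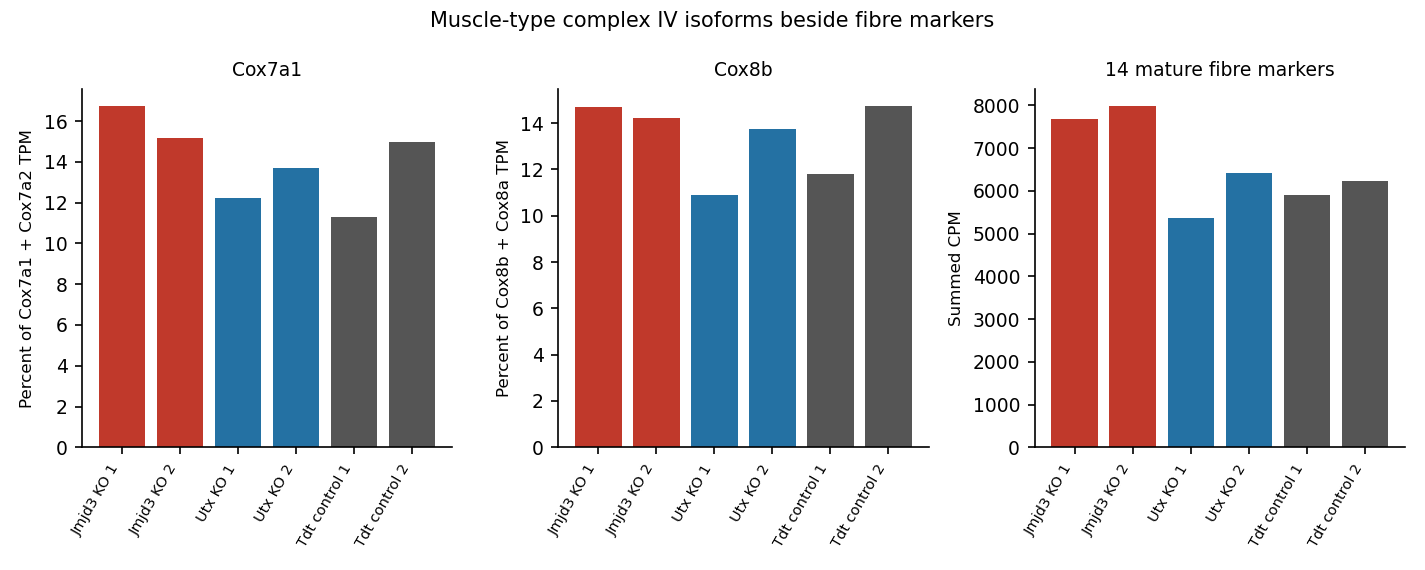
Percent of the paired TPM held by the muscle forms Cox7a1 and Cox8b, and the summed CPM of 14 mature fibre markers (vertical axes, each from 0), with 1 bar for each of the 6 libraries. Shares of Cox7a1 run from 11.3% to 16.7% and those of Cox8b from 10.9% to 14.7%, and the fibre sum is higher in both Jmjd3 KO libraries than in the other 4.

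Among the ubiquitous subunits of complex IV, Cox6b1 was the lowest in both comparisons with Tdt control. Cox6b1, a subunit on the side of the intermembrane space, had 101 and 92.4 CPM in Jmjd3 KO, 84.9 and 88.8 CPM in Utx KO and 97.0 and 105 CPM in Tdt control libraries. Both Utx KO libraries lay below the other 4, by -0.21 ± 0.07 against Tdt control (adjusted p = 0.184), and the value in Jmjd3 KO was -0.06 ± 0.07 (adjusted p = 0.700). Its testis form Cox6b2 made up 0.464% to 0.678% of the pair. Cox6b2 had the highest value of the complex in Utx KO against Tdt control (0.14 ± 0.32, adjusted p = 0.876) and the lowest in Jmjd3 KO against Utx KO (-0.18 ± 0.32, adjusted p = 0.779), on 161 reads in all. Cox7a2l had 100 and 93.8 CPM in Jmjd3 KO, 103 and 104 CPM in Utx KO and 93.8 and 95.1 CPM in Tdt control libraries. It was higher in both Utx KO than in both Tdt control libraries, by 0.13 ± 0.06 (adjusted p = 0.303). Cox8a, the most abundant, lay between 122 and 136 CPM in all 6 libraries.

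The membrane ring of ATP synthase is built from identical c subunits that 3 genes encode, with different targeting sequences and the same mature protein. Atp5g1 had 91.9 and 89.7 CPM in Jmjd3 KO, 75.1 and 78.8 CPM in Utx KO and 85.0 and 91.1 CPM in Tdt control libraries. Both Utx KO libraries lay below the other 4, and the log2 fold change was 0.24 ± 0.06 in Jmjd3 KO against Utx KO (adjusted p = 0.0575) and -0.19 ± 0.06 in Utx KO against Tdt control (adjusted p = 0.179). The value for Jmjd3 KO against Utx KO was the nearest to the threshold of any member, and DESeq2 gave it an adjusted p of 0.00566. Atp5g3 had 105 and 105 CPM in Jmjd3 KO, 100.03 and 101 CPM in Utx KO and 111 and 121 CPM in Tdt control libraries. Both knockouts lay below the Tdt control without overlap, by -0.14 ± 0.06 in Jmjd3 KO (adjusted p = 0.249) and -0.21 ± 0.06 in Utx KO (adjusted p = 0.143), where DESeq2 gave an adjusted p of 0.0307. Atp5g2 had 36.9 and 35.1 CPM in Jmjd3 KO, 33.4 and 44.6 CPM in Utx KO and 46.7 and 37.7 CPM in Tdt control libraries. Its value of -0.23 ± 0.14 in Jmjd3 KO against Tdt control (adjusted p = 0.413) became 0.02 (adjusted p = 0.867) with the reads of its copy added. Together the 3 genes had 234 and 230 CPM in Jmjd3 KO, 209 and 224 CPM in Utx KO and 243 and 250 CPM in Tdt control libraries, a sum that holds only part of the reads of Atp5g2. With the copies added they had 365 and 356 CPM in Jmjd3 KO, 330 and 348.5 CPM in Utx KO and 362 and 370.5 CPM in Tdt control libraries, so that Jmjd3 KO and Tdt control overlapped and both Utx KO libraries lay below the other 4. Of the c subunit TPM, Atp5g1 held 37.2% and 36.6% in Jmjd3 KO, 33.9% and 33.6% in Utx KO and 32.9% and 34.8% in Tdt control libraries.

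Outside the c ring, groups overlapped for the catalytic beta subunit of ATP synthase. Atp5b had 1358 and 1297 CPM in Jmjd3 KO, 1295 and 1391 CPM in Utx KO and 1326 and 1321 CPM in Tdt control libraries, with overlap throughout. Atp5d, the delta subunit of the central stalk, was the highest of the complex in Jmjd3 KO against Tdt control at 0.09 ± 0.05 (adjusted p = 0.408). Atp5j, coupling factor 6 of the side stalk, had 45.2 and 39.1 CPM in Jmjd3 KO, 46.3 and 47.5 CPM in Utx KO and 37.8 and 42.7 CPM in Tdt control libraries. It was higher in both Utx KO libraries than in the other 4, by 0.22 ± 0.08 against Tdt control (adjusted p = 0.249), and it was the lowest of the complex in Jmjd3 KO against Utx KO (-0.15 ± 0.08, adjusted p = 0.290). Atp5mpl, a small membrane subunit, had 34.9 and 33.8 CPM in Jmjd3 KO, 34.2 and 37.1 CPM in Utx KO and 37.7 and 40.1 CPM in Tdt control libraries. Its log2 fold change of -0.18 ± 0.06 in Jmjd3 KO had the smallest p of any member in that comparison with Tdt control (adjusted p = 0.153).

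Most subunit genes differed in the same direction between the 2 libraries of a group. In Jmjd3 KO 72 of 79 members were higher in replicate 1 than in replicate 2, with a median log2 difference of 0.11, while 52.1% of all genes were. In Utx KO 75 of 79 were higher in replicate 2, with a median of 0.07, against 50.8% of all genes. In Tdt control 70 of 79 were higher in replicate 2, with a median of 0.08, against 49.9% of all genes. All complexes took part: in Utx KO each of the 13 genes of complex IV and each of the 4 of complex II was higher in replicate 2, and in Jmjd3 KO each of the 8 of complex III was higher in replicate 1. The median difference was larger for the 39 members shorter than the median effective length of 543 bases than for the 40 others, at 0.15 and 0.08 in Jmjd3 KO, 0.10 and 0.06 in Utx KO and 0.11 and 0.05 in Tdt control. Summed over all 82 members, the level was 8979 and 8441 CPM in Jmjd3 KO, 8508 and 9044 CPM in Utx KO and 8553 and 8902 CPM in Tdt control libraries. The 2 libraries of each group thus lay farther apart than the means of the groups. The part of length, RNA quality or cell content in this was not tested.

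**Figure D5:**
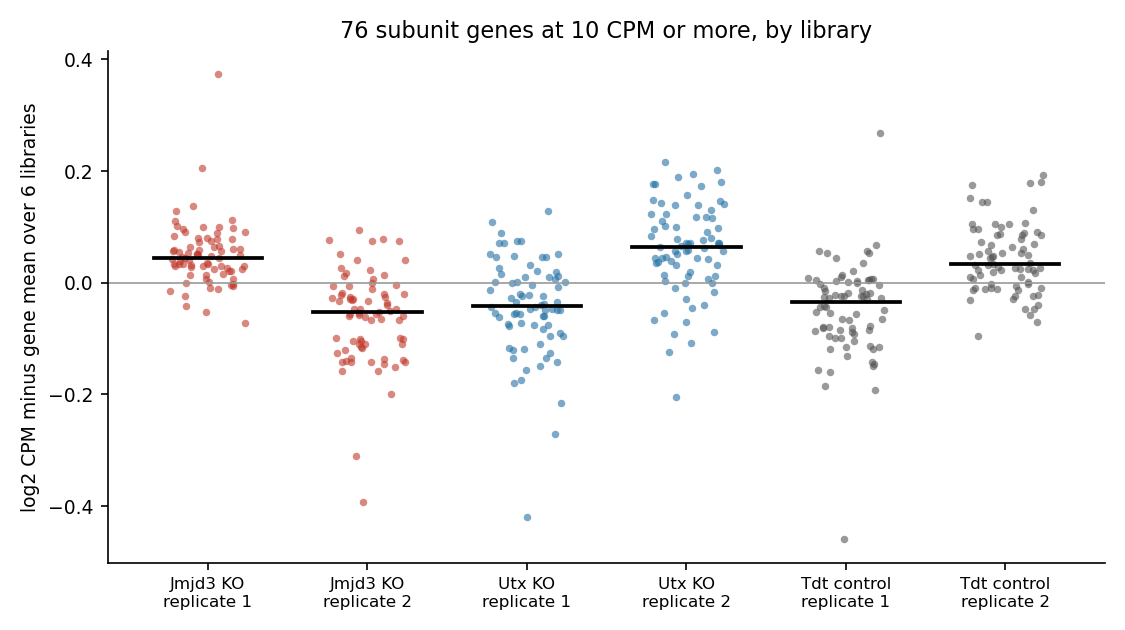
Deviation of log2 CPM from the gene's mean over 6 libraries (vertical axis) for the 76 subunit genes with a mean of at least 10 CPM, by library, with 1 point a gene and a bar at the median. The bars lie at 0.05 and -0.05 in Jmjd3 KO, -0.04 and 0.06 in Utx KO and -0.04 and 0.03 in Tdt control, so each group holds 1 library above and 1 below 0.

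The 13 subunits encoded in the mitochondrion leaned the same way as the nuclear ones between libraries in Jmjd3 KO and Tdt control, and the opposite way in Utx KO. They summed to 7204 and 6347 CPM in Jmjd3 KO, 7821 and 6187 CPM in Utx KO and 6582 and 7673 CPM in Tdt control libraries. In Jmjd3 KO 11 of the 13 were higher in replicate 1 and in Tdt control 12 were higher in replicate 2. In Utx KO all 13 were higher in replicate 1, with a median log2 difference of 0.29, where the nuclear members were higher in replicate 2. The ratio of mitochondrial to nuclear summed TPM was 1.31 and 1.278 in Jmjd3 KO, 1.40 and 1.09 in Utx KO and 1.32 and 1.32 in Tdt control libraries. The Utx KO replicates thus held the highest and the lowest ratio. Of these 13 genes 0 were called by edgeR in each comparison, with 0 at an unadjusted p under 0.05 in Jmjd3 KO against Tdt control, 1 in Utx KO against Tdt control and 2 in Jmjd3 KO against Utx KO. Of all genes, 19.96%, 16.2% and 25.55% had such a p in that order. DESeq2 called 0 of the 13 in each.

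Factors that assemble the complexes were a list with calls. Of 51 assembly factors 50 were tested, and in Jmjd3 KO against Tdt control 0 rose and 1 fell (2%, against 1.03% of all genes lower), in Utx KO against Tdt control 0 were called (4 higher and 4 lower at an unadjusted p under 0.05, and 0 called by DESeq2), and in Jmjd3 KO against Utx KO 0 rose and 3 fell (6%, against 2.89% of all genes lower). The 4 higher and 4 lower in Utx KO are 8% each, against 7.66% and 8.54% of all genes. At an unadjusted p under 0.05 in edgeR there were 0 higher and 2 lower (4%) in Jmjd3 KO against Tdt control, against 11% and 8.93% of all genes. In Jmjd3 KO against Utx KO 1 was higher and 6 were lower (2% and 12%, against 13.7% and 11.9% of all genes). The 1 called in both comparisons of Jmjd3 KO was Lyrm7, a chaperone that stabilises the Rieske protein before it enters complex III. Lyrm7 lies on the chromosome of Kdm6b (chr11:54826866-54860916), and the part of that position in its value was not tested. Lyrm7 had 1.40 and 1.07 CPM in Jmjd3 KO, 3.29 and 3.25 CPM in Utx KO and 3.38 and 3.52 CPM in Tdt control libraries, so both Jmjd3 KO libraries lay well below the other 4 by CPM. By TPM, which corrects for length, it had 1.32 and 0.42 in Jmjd3 KO, 1.38 and 1.77 in Utx KO and 1.58 and 1.94 in Tdt control libraries. On that scale Jmjd3 KO replicate 1 lay close to Utx KO replicate 1. The log2 fold change of Lyrm7 in Jmjd3 KO was -1.48 ± 0.17 against Tdt control (2.79-fold lower, adjusted p = 0.00560) and -1.40 ± 0.17 against Utx KO (adjusted p = 0.00438). With offsets for transcript length it was -1.21 (adjusted p = 0.248) and -1.05 (adjusted p = 0.252), so both calls were lost once the mean length of the transcripts read entered the fit. Uqcrfs1, the Rieske protein itself, was at -0.03 ± 0.06 in Jmjd3 KO against Tdt control (adjusted p = 0.794).

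Calls in other mitochondrial lists can be read beside the shares of all genes called by edgeR. Those were 1.97% higher and 1.03% lower in Jmjd3 KO and 0.790% and 0.925% in Utx KO, each against Tdt control. They were 5.13% and 2.89% in Jmjd3 KO against Utx KO. Besides Lyrm7, Coa3, a complex IV factor (-0.32 ± 0.06, adjusted p = 0.0194), and Uqcc1, a complex III factor (-0.21 ± 0.05, adjusted p = 0.0366), were lower in Jmjd3 KO against Utx KO, and each call was lost when Jmjd3 KO replicate 1, Jmjd3 KO replicate 2 or Utx KO replicate 2 was left out (adjusted p from 0.0772 to 0.216), that of Uqcc1 also without the first Utx KO library (0.114). Coa3 also lies on the chromosome of Kdm6b (chr11:101277968-101279114), and the part of that position in its value was not tested. Of 20 regulators of mitochondrial biogenesis, 0 were called by edgeR against Tdt control in either knockout. At an unadjusted p under 0.05 in edgeR there were 2 higher and 5 lower in Jmjd3 KO, where DESeq2 called 2 (Ppargc1a higher and Myc lower). These are 10% and 25% of the list, against 11% and 8.93% of all genes. In Utx KO 1 was higher and 3 were lower (5% and 15%, against 7.66% and 8.54% of all genes), and DESeq2 called 0. Their best known member Ppargc1a, the coactivator PGC-1alpha, had 4.91 and 4.88 CPM in Jmjd3 KO, 3.68 and 5.37 CPM in Utx KO and 3.001 and 3.22 CPM in Tdt control libraries (Jmjd3 KO against Tdt control 0.65 ± 0.17, adjusted p = 0.0928). In Jmjd3 KO against Utx KO Myc was lower (-0.39 ± 0.08, adjusted p = 0.0270) and Ppard, a fatty acid receptor, was higher (0.30 ± 0.06, adjusted p = 0.0298). Both calls were lost without Jmjd3 KO replicate 1, Jmjd3 KO replicate 2 or Utx KO replicate 1, and that of Ppard also without the second Utx KO library, with adjusted p between 0.09 and 0.212. Of 21 genes of the tricarboxylic acid cycle and pyruvate dehydrogenase, only Pcx, pyruvate carboxylase, was called, at 0.39 ± 0.07 in Jmjd3 KO against Tdt control (adjusted p = 0.0323) and 0.31 ± 0.07 against Utx KO (adjusted p = 0.0433). It lost each call without any 1 of the 4 libraries compared (adjusted p from 0.0781 to 0.206), and the first also without Utx KO replicate 1 (0.0513). Of 21 inner membrane carriers and quality control genes, Hspd1, the chaperonin of the matrix, had 1187 and 1150 CPM in Jmjd3 KO, 1409 and 1427 CPM in Utx KO and 1271 and 1282 CPM in Tdt control libraries. It fell in Jmjd3 KO against Utx KO by a log2 fold change of -0.28 ± 0.03 (adjusted p = 0.00439).

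Of 78 mitochondrial ribosomal protein genes, which serve to make the subunits encoded in the mitochondrion, 0 were called by edgeR in Jmjd3 KO against Tdt control, where 9 were lower at an unadjusted p under 0.05 and DESeq2 called 2 (Mrpl32 and Mrpl55, both lower). Those 9 are 11.5% of the list, against 8.93% of all genes lower. At the same unadjusted p, 7 were higher and 2 lower in Utx KO against Tdt control, and 1 was higher and 24 were lower in Jmjd3 KO against Utx KO, the last being 30.8% of the list, against 11.9% of all genes. At an adjusted p under 0.05 edgeR called 1 gene of the list in each of these comparisons, Mrpl19. Of all genes, 0.790% were called higher in Utx KO against Tdt control and 2.89% lower in Jmjd3 KO against Utx KO. Mrpl19 had 33.2 and 32.7 CPM in Jmjd3 KO, 44.2 and 42.6 CPM in Utx KO and 36.3 and 35.4 CPM in Tdt control libraries. It rose in Utx KO against Tdt control by 0.28 ± 0.05 (adjusted p = 0.0366), a call lost without any 1 of the 6 libraries (adjusted p from 0.0912 to 0.197). It fell in Jmjd3 KO against Utx KO by -0.40 ± 0.05 (adjusted p = 0.00428), a call lost without Jmjd3 KO replicate 2 (0.0549). The 12 subunits and carriers that the symbol pattern leaves out, among them Cox4i1, Cyc1 and cytochrome c, gave 0 calls in each comparison by edgeR, with 2, 1 and 1 at an unadjusted p under 0.05 in Jmjd3 KO against Tdt control, Utx KO against Tdt control and Jmjd3 KO against Utx KO, and 0 in each by DESeq2. In the same order, 19.96%, 16.2% and 25.55% of all genes had such an unadjusted p.

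Most subunit genes were read through 1 transcript. Over 79 members the leading transcript held a median of 97.1% of the gene's TPM, it held 90% or more in 48 and under 60% in 13. Transcripts annotated as protein-coding held 91.6% to 92.4% of the members' TPM in each library. In the authors' deposited table for Jmjd3 KO against Tdt control 79 members had an adjusted p and 0 were under 0.05, the smallest being 0.207, with log2 fold changes from -0.17 to 0.08. In the authors' deposited table for Utx KO against Tdt control 0 of 79 were under 0.05, the smallest being 0.0894, with log2 fold changes from -0.18 to 0.14. Deposited fold changes can be far smaller than those above, as for Ndufa4l2 in Utx KO (-0.02, against -1.29 above) and Cox7a1 in Jmjd3 KO (0.05, against 0.34 above). Their ranges are thus not on the scale of the fold changes above and do not bound them. The authors' deposited tables called 876 of 14359 genes in the first comparison and 629 of 14941 genes in the second.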

How the data were processed

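Total RNA of 6 libraries was read. Tools that the submitters' processing notes list are cutadapt (2.6), Salmon (1.1.0) and DESeq2 (1.28.1), with no roles, for the builds mm10 and GRCm38. Per the file headers, the authors' transcript files hold estimated counts, TPM and lengths. Their gene tables hold, per the file headers, a base mean signal, log2 fold changes and p-values.

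The members and gene lists were chosen with earlier results of these data known. Deposited estimated counts were added up by gene through GENCODE M21 and rounded to whole numbers. Which annotation release the authors used is not given in these sources. All 6 libraries entered 1 edgeR 4.0.16 fit (R 4.3.3, limma 3.58.1) with TMM normalization, the low-count filter filterByExpr and genotype as the only term, with 3 residual degrees of freedom. Called means a Benjamini-Hochberg adjusted p under 0.05 in the quasi-likelihood test over all 17084 genes. Small RNA classes held 55.3% to 57.4% of all TPM and shift the scale of TPM between libraries, so libraries were compared by CPM. Totals and intervals cover counting error and the spread of these libraries only. The steps were tested on simulated data, where the share of false calls exceeded its nominal level in each comparison and some true changes, most often the smaller ones, were missed. Pseudogene copies were found with BLAST 2.17.0, and tables were built in Python 3.11.15.

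Named were the highest and lowest level in each complex, the largest fold change each way per complex and comparison, paralog sets, the complex I core, the Sdh genes and up to 3 called genes per other list; Ndufs5 with its copy, Uqcrh, Atp5mpl, Cox7a2l, Ppargc1a and the promoters printed were chosen after their values were seen. Alternatives were other size factors (RLE, upper quartile), no low-count filter or 5 CPM in 2 libraries, transcript length offsets, a replicate block, protein-coding genes only, the 4 libraries compared alone, DESeq2 1.42.0, each library left out, and, added after seeing the data, copies merged and TPM rescaled to protein-coding genes. Values of a few further subunit genes are not reported here.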

Additional observations from a re-analysis of the deposited data

How the results depend on the processing

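No named gene reversed its direction past the threshold for a call. The signs of medians by complex and the direction of ratios of summed levels were less stable, as given above and below. The count of subunit genes called, 0 in each comparison, became 3 (Ndufs5, Cox7a1, Atp5g2) in Jmjd3 KO against Tdt control, 4 (Atp5g3, Cox6b1, Ndufa4l2, Atp5j) in Utx KO against Tdt control and 5 (Ndufs5, Cox7a1, Ndufa13, Atp5g1, Ndufb4) in Jmjd3 KO against Utx KO with no low-count filter. With DESeq2 it became 2 in Utx KO against Tdt control and 2 in Jmjd3 KO against Utx KO. In the last it was 1 (Atp5g1) with 5 CPM in 2 libraries, with protein-coding genes only and with the 4 libraries alone, and 0 to 1 with 1 library left out (Ndufs5 without Jmjd3 KO replicate 1, Atp5g1 without Tdt control replicate 2). The causes were not tested. Over all alternatives, the named genes stayed on their side of the threshold 1735 times, gained a call 19 times and lost one 43 times.

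Counts over all genes, 513 in Jmjd3 KO against Tdt control, 293 in Utx KO against Tdt control and 1370 in Jmjd3 KO against Utx KO, were in that order 1872, 1399 and 2856 with no low-count filter and 331, 131 and 792 with length offsets. They were 1084 and 697 in the first pair with DESeq2, and 119 in Utx KO against Tdt control with 4 libraries alone. Leaving out 1 library gave 113 to 434, 16 to 96 and 291 to 1387. The replicate block gave 322 and 133 against Tdt control and 948 in Jmjd3 KO against Utx KO, with 0 subunit genes called. Same-numbered libraries did not deviate together (correlations -0.011, -0.053 and -0.008), so the numbers were not read as pairs.

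With 1 library left out, medians by complex ran in Jmjd3 KO against Tdt control from -0.0116 to 0.0732 (II) and -0.077 to 0.043 (V), in Utx KO against Tdt control from -0.071 to 0.0458 (II) and -0.0133 to 0.107 (III), and in Jmjd3 KO against Utx KO from -0.0947 to 0.0311 (V). Ratios of summed TPM for Jmjd3 KO over Tdt control, 1.09 (II), 1.09 (III) and 1.07 (V), were 1.02, 0.999 and 0.994 by summed CPM. For Jmjd3 KO over Utx KO, 1.03 (I), 1.08 (II), 1.03 (III), 1.06 (IV) and 1.06 (V) were 0.986, 1.02, 0.984, 0.992 and 0.995. For Utx KO over Tdt control, 1.03 (I), 1.05 (III) and 1.01 (V) ran from 0.973 to 1.09, 0.995 to 1.11 and 0.963 to 1.06 with 1 library left out. No scaling moved the median of all genes by 0.1.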

Other observations

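Among the subunits encoded in the mitochondrion, mt-Co3 and mt-Co2, chosen after their values were seen, varied widely between libraries. mt-Co3 had 32 and 88.5 CPM in Jmjd3 KO, 249.9 and 58.6 CPM in Utx KO and 155 and 169 CPM in Tdt control libraries. mt-Co2 had 839 and 669 CPM in Jmjd3 KO, 766 and 396.5 CPM in Utx KO and 327 and 860 CPM in Tdt control libraries. Neither was called in any comparison.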
